A study of Mus musculus with 6 samples.

Results

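The genes described here encode the enzymes that turn arachidonic acid into prostaglandins, thromboxane and leukotrienes. They were chosen by name as 10 of the 54532 genes in the deposited count table: Pla2g4a, Ptgs1, Ptgs2, Ptges, Ptges2, Ptges3, Hpgds, Tbxas1, Alox5ap and Alox5. The samples described here compare mouse microglia with and without lipopolysaccharide (LPS), the endotoxin that gram-negative bacteria carry in their outer membrane. N9 is an immortalized line of mouse microglia, so all samples share that line, which was grown in serum-containing medium. RNA-seq covered 3 control samples without treatment and 3 samples exposed to LPS at 1 µg/ml for 6 h. The labels do not say whether the 3 replicates of a group were separate cultures, so p-values here measure only the spread between these samples, which may be technical.

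Arachidonic acid is held in membrane phospholipids until a phospholipase A2 cuts it free. Cyclooxygenases then convert it to prostaglandin H2, from which separate terminal synthases make prostaglandin E2, prostaglandin D2 and thromboxane A2, while 5-lipoxygenase, presented with its substrate by the protein FLAP, opens the leukotriene branch. In microglia and macrophages the inducible cyclooxygenase and the inducible prostaglandin E synthase are well known as genes that respond to bacterial products.

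The total count per library lay between 16363767 and 17956772. Levels are given as CPM, normalised read counts brought to a common library total after scaling by TMM factors from 0.9646 to 1.036, and a floor of 3 counts corresponded to 0.161 to 0.19 CPM. All 16 genes of a microglia and macrophage marker list had counts, with a summed level of 2330 to 2400 CPM in control and 2510 to 2580 CPM in LPS libraries, although P2ry12 had only 3 to 6 counts, Aif1 4 to 9 and C1qa 0 to 11. Of 13 tested markers in that list 3 were called higher and 4 lower, among them C1qb, a DEG lower at 11, 15 and 12 counts in control and 4, 2 and 5 in LPS libraries. Control replicates 2 and 3 stood apart in Alb, the albumin gene of hepatocytes, with 155 and 292 counts against 2, 0 and 0 in the LPS libraries and 2 in control replicate 1. Control replicates 1 and 3 and LPS replicate 1 stood apart in collagen genes, with Col1a1 at 70, 3 and 49 counts in control and 40, 3 and 1 in LPS libraries. The fit was also run without control replicates 2 and 3, where the lone control left is the library with the most Col1a1 counts.

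Of the 10 genes, 9 passed the filter on low counts and were tested with edgeR's quasi-likelihood test and Benjamini-Hochberg adjustment over 12296 genes. With LPS, 2 were up-regulated (Ptgs2 and Ptges) at an adjusted p under 0.05, where 18.7% of all tested genes were called higher. A further 4 were down-regulated (Pla2g4a, Ptgs1, Hpgds and Tbxas1), where 15.7% of all tested genes were called lower. The other 3 (Ptges2, Ptges3 and Alox5ap) did not pass. Only Ptges also had an absolute log2 fold change (log2FC) over 1.5, which makes it 1 DEG higher beside 2.4% of all tested genes, and 0 of the 9 were DEG lower beside 0.252% of all tested genes. The median log2FC of the 9 was -0.1 and that of all tested genes 0.0036. Under total-count scaling in place of TMM, which moved the median of all genes to -0.095, the calls over all genes went from 2294 higher and 1927 lower to 1520 higher and 3342 lower, while 2 of the 9 were again called higher and 4 lower.

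**Figure D1:**
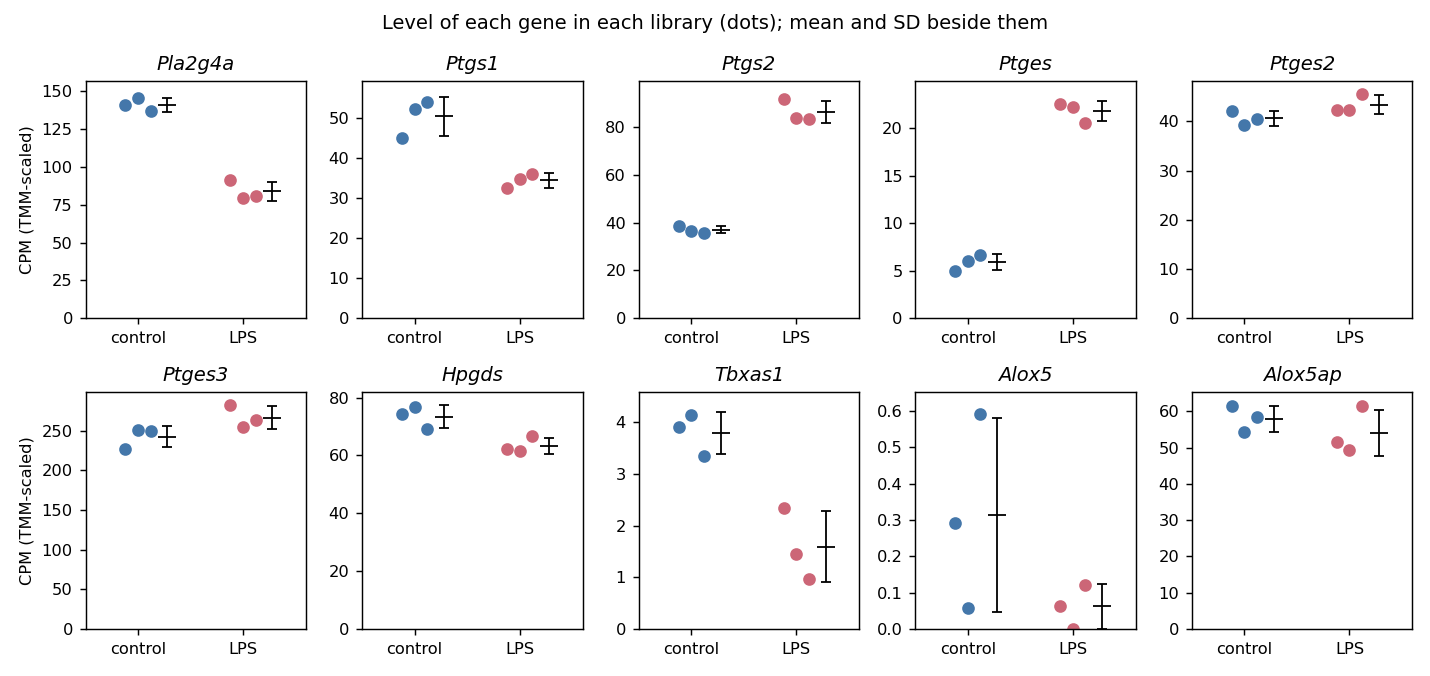
Level of each gene in CPM in every library, 1 dot a library, with bars for the mean and SD of each group (n = 3). Ptgs2 and Ptges sit higher in all 3 LPS libraries, Pla2g4a, Ptgs1, Hpgds and Tbxas1 sit lower, and Alox5 stays under 1 CPM throughout.

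Ptgs2 encodes COX-2, the inducible cyclooxygenase. The gene lies on chromosome 1 of the mouse build mm10 (GRCm38) from 150100031 to 150108227, on the plus strand. Its level was 38.6, 36.5 and 35.8 CPM in the control libraries and 91.7, 83.7 and 83.4 CPM in the LPS libraries. The lowest LPS library lay well over the highest control library, and the spread within each group was small. The mean rose from 36.96 ± 1.45 to 86.27 ± 4.72 CPM (SD, n = 3), a fold of 2.33 (95% confidence interval 2.14 to 2.55), with a log2FC of 1.22 (standard error 0.06, edgeR adjusted p = 4.1e-10). Without control replicates 2 and 3 its log2FC was 1.16 (edgeR adjusted p = 4.6e-07).

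Ptges encodes the inducible, membrane-bound prostaglandin E synthase that works downstream of COX-2. It lies on chromosome 2 from 30889471 to 30929863, on the minus strand. Its level was 4.96, 6.07 and 6.62 CPM in the control libraries and 22.6, 22.3 and 20.6 CPM in the LPS libraries. The lowest LPS library was thus well above the highest control library. The mean rose from 5.882 ± 0.843 to 21.82 ± 1.08 CPM (SD, n = 3), a fold of 3.7 (95% confidence interval 3.1 to 4.41), with a log2FC of 1.89 (standard error 0.12, edgeR adjusted p = 8.8e-09). Without control replicates 2 and 3 its log2FC was 2.14 (edgeR adjusted p = 8.7e-07).

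The sequence around the annotated start of the up-regulated pair is shown with that of Ptgs1 and Tbxas1, a down-regulated cyclooxygenase and a down-regulated terminal synthase, so that the start regions of genes that moved in opposite directions can be read together. Each window runs from 250 bases before to 50 bases after the RefSeq start on GRCm38.p6, on the strand of the gene, and capitals mark the motif matches described next. The windows are chr1:150099781-150100080 on the plus strand for Ptgs2, chr2:30903248-30903547 on the minus strand for Ptges, chr2:36230176-36230475 on the plus strand for Ptgs1 and chr6:38918736-38919035 on the plus strand for Tbxas1. For Ptges and Tbxas1 the RefSeq start lies inside the longer interval that the count table gives.
Ptgs2: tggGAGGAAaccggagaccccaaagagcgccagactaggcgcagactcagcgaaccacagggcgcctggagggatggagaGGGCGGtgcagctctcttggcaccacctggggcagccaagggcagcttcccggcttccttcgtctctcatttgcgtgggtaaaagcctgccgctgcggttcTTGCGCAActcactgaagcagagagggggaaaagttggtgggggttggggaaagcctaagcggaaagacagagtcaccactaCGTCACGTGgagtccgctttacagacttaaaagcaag
Ptges: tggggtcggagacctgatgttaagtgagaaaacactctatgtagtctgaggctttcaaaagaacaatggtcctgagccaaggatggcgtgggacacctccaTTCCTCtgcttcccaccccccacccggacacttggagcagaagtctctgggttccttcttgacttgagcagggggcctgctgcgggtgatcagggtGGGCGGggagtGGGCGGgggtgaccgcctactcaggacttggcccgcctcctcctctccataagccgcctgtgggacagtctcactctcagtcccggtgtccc
Ptgs1: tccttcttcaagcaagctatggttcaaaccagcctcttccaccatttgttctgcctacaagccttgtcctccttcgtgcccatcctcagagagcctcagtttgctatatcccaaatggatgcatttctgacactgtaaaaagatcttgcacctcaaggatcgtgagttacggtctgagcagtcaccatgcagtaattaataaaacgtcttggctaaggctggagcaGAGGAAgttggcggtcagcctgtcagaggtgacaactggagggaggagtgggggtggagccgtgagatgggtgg
Tbxas1: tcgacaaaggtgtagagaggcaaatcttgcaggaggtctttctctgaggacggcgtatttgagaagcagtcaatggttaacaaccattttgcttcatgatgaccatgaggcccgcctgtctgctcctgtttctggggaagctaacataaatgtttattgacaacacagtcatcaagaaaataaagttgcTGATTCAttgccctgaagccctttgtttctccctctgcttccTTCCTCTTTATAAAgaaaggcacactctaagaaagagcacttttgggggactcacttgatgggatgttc

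The motifs were searched on both strands in 32851 RefSeq windows of the same length and had been chosen with sequences and results in view. The Ptgs2 window held a C/EBP match, TTGCGCAA, from position -69 to -62 counted from the start, to the letters TTNNGCAA, which 10.8% of all windows hold. It also held an E-box (CACGTG, 7.15% of all windows) from 17 to 22 that overlaps a CRE core (TGACG, 20.8% of all windows, here on the other strand) from 14 to 18. A GC box (GGGCGG, 35.7% of all windows) lay from -170 to -165 and a PU.1 core (GAGGAA, 28.3% of all windows) from -247 to -242. The Ptges window shared the GC box, present at -53 to -48 and again at -42 to -37, and a PU.1 core from -149 to -144, but had no C/EBP or E-box letters.

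The C/EBP, E-box and CRE letters were each in 2 of the 10 windows of the genes described here, which come from 9 genes, since Pla2g4a has 2 windows and Alox5ap none. The other C/EBP match lay from -176 to -169 in the window of Hpgds, which was down-regulated, the other E-box from -77 to -72 in that of Ptges2 and the other CRE core from 12 to 16 in that of Ptges3, neither of which was called. Among the down-regulated genes, the Ptgs1 window held a PU.1 core from -24 to -19 and no other match. The Tbxas1 window held an AP-1 match (TGANTCA, 7.81% of all windows) from -61 to -55, TATA box letters (TATAAA, 13.6% of all windows) from -11 to -6 on the strand of the gene and from -13 to -8 on the other strand, and a PU.1 core from -19 to -14. PU.1 letters were present in 6 of the 10 windows of these genes. Letters for NF-kappa B, held by 4.51% of all windows, and for the ISRE core, held by 3.44%, were in 0 of the 10 windows, which says nothing about sites outside them. A match is a description of the letters and was not tested for binding.

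Pla2g4a encodes the cytosolic phospholipase A2 that releases arachidonic acid from membranes, the step before both branches. It lies on chromosome 1 from 149829618 to 149961290, on the minus strand. Its level was 141, 146 and 137 CPM in the control libraries and 91.1, 79.8 and 80.7 CPM in the LPS libraries. All LPS libraries were lower than all control libraries. The mean fell from 141.3 ± 4.6 to 83.86 ± 6.32 CPM (SD, n = 3), 1.69-fold lower, with a log2FC of -0.75 (standard error 0.06, 95% confidence interval -0.87 to -0.63, edgeR adjusted p = 5.5e-08). In bulk RNA, fewer cells that express a gene and less of its RNA per cell cannot be told apart, here or for the other genes.

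Ptgs1 encodes COX-1, the constitutive cyclooxygenase. It lies on chromosome 2 from 36230426 to 36252272, on the plus strand. Its level was 44.9, 52.3 and 54 CPM in the control libraries and 32.5, 34.8 and 35.9 CPM in the LPS libraries. The groups did not overlap, although control replicate 1 lay closer to the LPS libraries than the other controls did. The mean fell from 50.41 ± 4.85 to 34.4 ± 1.77 CPM (SD, n = 3), 1.47-fold lower, with a log2FC of -0.55 (standard error 0.08, edgeR adjusted p = 5e-05). Without control replicates 2 and 3 its log2FC was -0.38 (edgeR adjusted p = 0.013), the nearest to 0 among the 15 alternatives, which reached down to -0.65.

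The cyclooxygenases thus moved in opposite directions, and their balance was read per kilobase of the gene length in the deposited table, since levels of different genes can be compared only per length. Ptgs2 made up 42.2%, 37.1% and 36% of the summed level per kilobase of Ptgs1 and Ptgs2 in control and 70.6%, 67.1% and 66.3% in LPS libraries. Ptgs1 was the higher of the pair in every control library and Ptgs2 in every LPS library. The ratio of Ptgs2 to Ptgs1 was 0.627 ± 0.089 in control and 2.13 ± 0.23 in LPS libraries (SD, n = 3), and a two-sided exact permutation test of the log ratio gave p = 0.1, the smallest that 3 libraries against 3 allow.

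**Figure D2:**
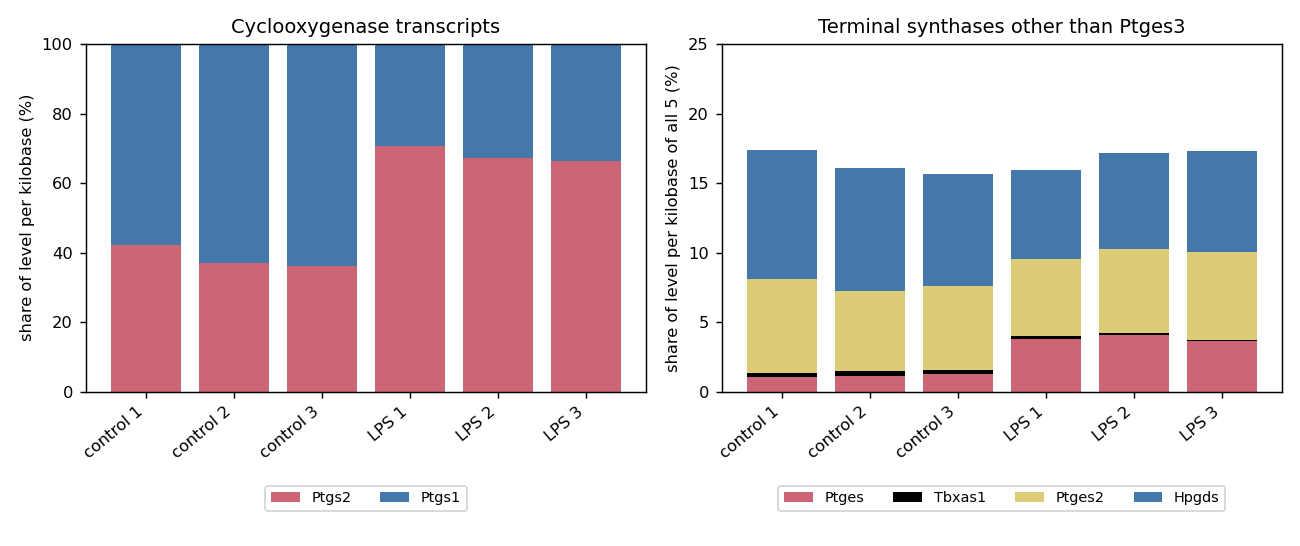
Share of the summed level per kilobase, in percent, in each library: Ptgs2 against Ptgs1 on the left, and Ptges, Tbxas1, Ptges2 and Hpgds as shares of all 5 terminal synthases on the right, where Ptges3 makes up the rest. The Ptgs2 share lies at 36% to 42.2% in control and 66.3% to 70.6% in LPS libraries.

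The terminal synthases did not move together. Tbxas1 encodes thromboxane A synthase, which turns prostaglandin H2 into thromboxane A2, and lies on chromosome 6 from 38875404 to 39084585, on the plus strand. Control libraries held 67, 73 and 62 of its reads and LPS libraries 37, 24 and 16. The groups did not overlap, but the LPS libraries differed from each other by more than their counts alone give, with a coefficient of variation of 43.6% where counting error gives 19.7%. The mean fell from 3.795 ± 0.414 to 1.594 ± 0.695 CPM (SD, n = 3), 2.38-fold lower, with a log2FC of -1.25 (standard error 0.28, 95% confidence interval -1.86 to -0.65, edgeR adjusted p = 0.003). Without LPS replicate 1 its log2FC was -1.63, past the threshold for a DEG, and without LPS replicate 3 it was -0.99, with the gene called lower in both fits.

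The first bases of Hipk2, a kinase gene on the minus strand, overlap the start of the Tbxas1 interval. Hipk2 had 2365, 2907 and 2976 counts in control and 4036, 4643 and 4515 in LPS libraries, opposite in direction to Tbxas1 (log2FC 0.81, standard error 0.06, edgeR adjusted p = 9e-08). Whether reads were counted by strand is not given in the sources used here, so reads from the shared stretch could have been assigned to either gene or to none.

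Hpgds encodes the hematopoietic prostaglandin D synthase and lies on chromosome 6 from 65117293 to 65144908, on the minus strand. Its level was 74.3, 76.8 and 69 CPM in the control libraries and 62.2, 61.4 and 66.6 CPM in the LPS libraries. The groups lay close together without overlapping. The mean fell from 73.36 ± 3.96 to 63.42 ± 2.8 CPM (SD, n = 3), 1.16-fold lower, with a log2FC of -0.21 (standard error 0.06, edgeR adjusted p = 0.0098). This small difference did not pass without LPS replicate 2 (log2FC -0.19, edgeR adjusted p = 0.055). Gm17147, a pseudogene inside the Hpgds interval on the other strand, had 10, 14 and 9 counts in control and 0, 0 and 5 in LPS libraries.

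Ptges2 encodes a membrane-associated prostaglandin E synthase that is made constitutively, and lies on chromosome 2 from 32395896 to 32405772, on the plus strand. Its level was 42.1, 39.2 and 40.5 CPM in control and 42.3, 42.4 and 45.6 CPM in LPS libraries. The groups nearly touched. Its log2FC was 0.10 (standard error 0.06, 95% confidence interval -0.04 to 0.23, edgeR adjusted p = 0.27), an interval that reaches a fold of 1.17 at most, and with total-count scaling the estimate was -0.0012.

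Ptges3 encodes p23, a cytosolic prostaglandin E synthase that is also a co-chaperone of Hsp90, and lies on chromosome 10 from 128058954 to 128077272, on the plus strand. Its level was 227, 251 and 249 CPM in control and 282, 254 and 263 CPM in LPS libraries. LPS replicate 2 lay just above control replicates 2 and 3. Its log2FC was 0.14 (standard error 0.05, 95% confidence interval 0.03 to 0.25, edgeR adjusted p = 0.056), and 5 of 15 alternatives called it higher, with log2FC between 0.04 and 0.23 over all 15. Without LPS replicate 2, for example, its log2FC was 0.17 (edgeR adjusted p = 0.046). The processed pseudogene Ptges3-ps on chromosome 6 had 1406, 1112 and 1172 counts in control and 1124, 1110 and 1084 in LPS libraries (log2FC -0.02, edgeR adjusted p = 0.87), and reads that fit both copies could have been split between them.

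Among the 5 terminal synthases, Ptges3 took the largest share of the summed level per kilobase, 83.6% ± 0.91 in control and 83.2% ± 0.76 in LPS libraries (SD, n = 3). The Ptges share was 1.02%, 1.14% and 1.27% in control and 3.8%, 4.1% and 3.66% in LPS libraries. Hpgds made up 8.75% ± 0.63 in control and 6.85% ± 0.42 in LPS libraries, and Tbxas1 0.32% ± 0.038 and 0.121% ± 0.048. These shares depend on the deposited gene lengths, 6425 bases for Hpgds and 9094 for Tbxas1. The GENCODE M21 transcripts with the longest coding sequence have 3476 and 1990 bases. Shares by that length are not given for Hpgds and Tbxas1 and would be larger. Set against Ptges2 alone, Ptges made up 15.7% ± 2.2 of the pair in control and 39.3% ± 2.2 in LPS libraries, so Ptges2 stayed the higher of the pair in all 6 libraries. The ratio of Ptges to Ptges2 was 0.187 ± 0.031 in control and 0.648 ± 0.059 in LPS libraries, with a two-sided exact permutation p of 0.1, the smallest possible.

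The leukotriene branch was uneven in level. Alox5ap encodes FLAP, the membrane protein that hands arachidonic acid to 5-lipoxygenase, and lies on chromosome 5 from 149264767 to 149288153, on the plus strand. Its level was 61.4, 54.3 and 58.4 CPM in control and 51.6, 49.5 and 61.4 CPM in LPS libraries. LPS replicate 3 matched the highest control library, so the groups overlapped. Its log2FC was -0.10 (standard error 0.08, 95% confidence interval -0.27 to 0.07, edgeR adjusted p = 0.36), and without LPS replicate 3 it was -0.20 (edgeR adjusted p = 0.049). The antisense gene Gm19719 inside its interval had at most 14 counts in any library, and the remaining genes that overlap a member had at most 2.

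Alox5 encodes 5-lipoxygenase itself and lies on chromosome 6 from 116410077 to 116461178, on the minus strand. Control libraries held 5, 1 and 11 of its reads and LPS libraries 1, 0 and 2, and the gene did not pass the filter. The groups overlapped, and the LPS libraries were all under the floor of 3 counts. Summed over libraries the ratio of control to LPS was 5.16 (95% interval 1.49 to 27.5, covering counting error only, 17 counts against 3), and edgeR without the filter gave a log2FC of -2.23 (standard error 1.13, adjusted p = 0.18). Per kilobase, Alox5 made up 0.183% ± 0.16 of the summed level of Alox5 and Alox5ap in control and 0.037% ± 0.035 in LPS libraries (SD, n = 3).

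**Figure D3:**
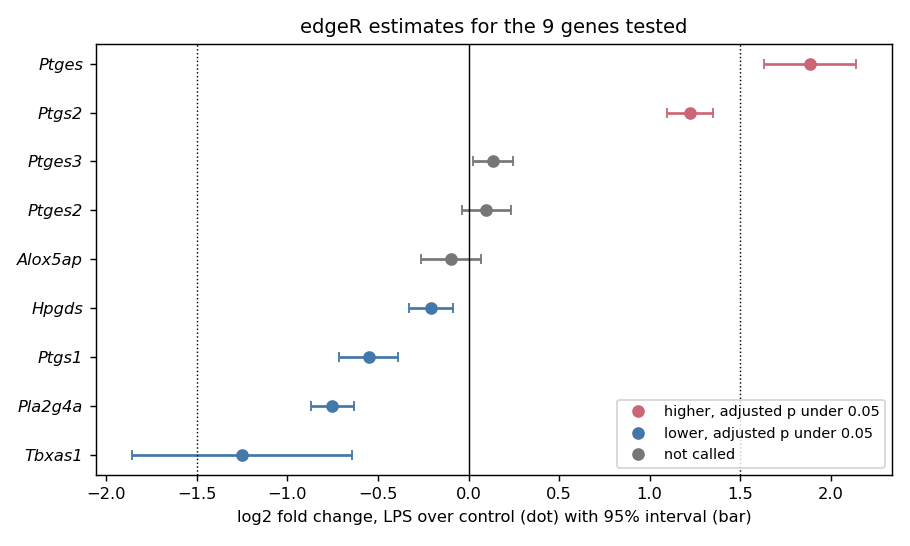
Log2 fold change of LPS against control for the 9 tested genes, with the 95% confidence interval from edgeR, unadjusted, and dotted lines at the threshold of 1.5 for a DEG. The intervals of Ptgs2 and Ptges lie above 0 and those of Pla2g4a, Ptgs1, Hpgds and Tbxas1 below it, that of Ptges3 lies just above 0 although its adjusted p did not pass, and the widest interval is that of Tbxas1, from -1.86 to -0.65.

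Ordered by mean level per kilobase, the control libraries ran from Ptges3 (109.3 ± 5.91 CPM per kilobase) and Alox5ap (40.87 ± 2.53) through Pla2g4a (22.11 ± 0.72), Ptgs1 (12.98 ± 1.25), Hpgds (11.42 ± 0.616), Ptgs2 (8.069 ± 0.316) and Ptges2 (8.029 ± 0.29) to Ptges (1.496 ± 0.214), Tbxas1 (0.4173 ± 0.0455) and Alox5 (0.07634 ± 0.0653). In that order the libraries of Ptgs1 and Hpgds overlapped, as did those of Ptgs2 and Ptges2, and all other neighbours were separate. In the LPS libraries Ptgs2 stood at rank 3 with 18.84 ± 1.03 CPM per kilobase, between Alox5ap (38.13 ± 4.48) and Pla2g4a (13.12 ± 0.989). Hpgds (9.871 ± 0.435), Ptgs1 (8.857 ± 0.457), Ptges2 (8.585 ± 0.374) and Ptges (5.551 ± 0.275) followed, and only Ptgs1 and Ptges2 overlapped among neighbours. Averaged over the 6 libraries, 3.59% of all tested genes were at or above the level of Ptges3 and 12.3% at or above that of Alox5ap.

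The length used bears on this order. With the length of the GENCODE M21 transcript with the longest coding sequence, Pla2g4a (49.5 CPM per kilobase of transcript) stood above Alox5ap (46.4) in control libraries, Hpgds (21.1) above Ptgs1 (17.6) and Tbxas1 (1.91) above Ptges (1.61), and Ptgs2 moved from rank 6 in control to rank 4 in LPS libraries rather than to rank 3. Replicate spread also differed between genes. The coefficient of variation of Ptgs2 in control libraries, 3.92%, was close to the 3.9% that counting error gives, whereas that of Ptgs1, 9.62%, stood above its counting error of 3.34%, and that of Alox5ap in LPS libraries was 11.7% against 3.38%.

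**Figure D4:**
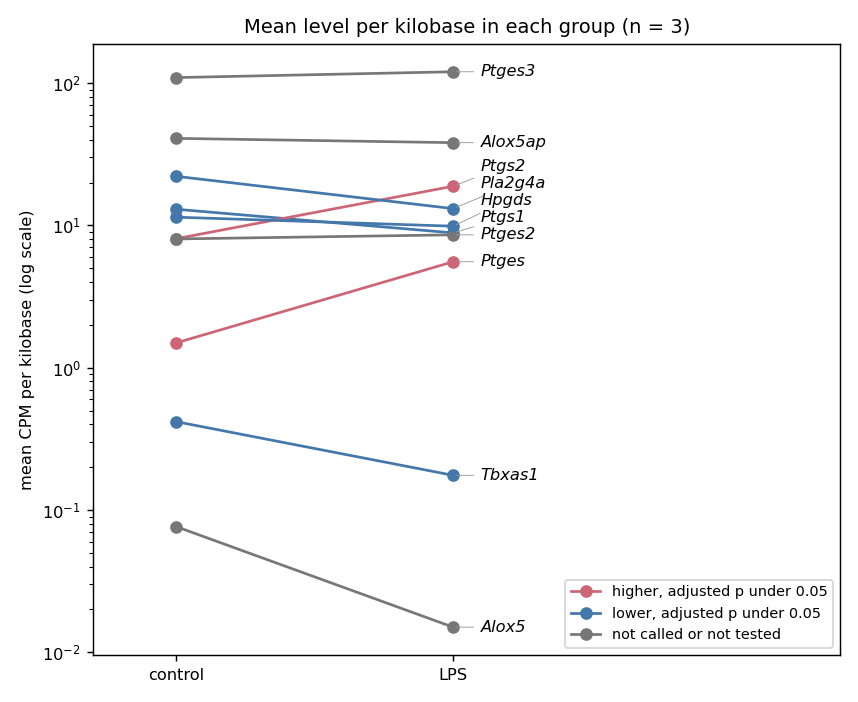
Mean level per kilobase of the 10 genes in control and LPS libraries (n = 3 each) on a log axis, with a line joining the means of each gene. The Ptgs2 line crosses those of Ptgs1, Hpgds and Pla2g4a, and Ptges3 is at the top and Alox5 at the bottom in both groups.

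Across the 9 tested genes, 4 were higher in all LPS than in all control libraries (Ptgs2, Ptges, Ptges2 and Ptges3), where 23.7% of all tested genes were so placed, and 4 were lower (Pla2g4a, Ptgs1, Hpgds and Tbxas1), where 21.5% of all tested genes were so placed. The separation of Ptges2 and Ptges3 was narrow and neither passed the test.

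The Ptgs2 locus also holds long noncoding genes. Ptgs2os2, a lincRNA on the minus strand 50815 bases past the end of Ptgs2, had 34, 37 and 39 counts in control and 58, 67 and 45 in LPS libraries. All LPS libraries were above all controls, and it rose with a log2FC of 0.76 (standard error 0.23, edgeR adjusted p = 0.02). Ptgs2os, 67 bases from the start of Ptgs2 on the other strand, had 2 counts in control replicate 1 and 0 in the other libraries.

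The 3′ untranslated regions of the genes differed in copies of the pentamer ATTTA, the core of AU-rich elements, which are known to shorten the life of many cytokine and cyclooxygenase mRNAs. Ptgs2 held 14 copies in 2445 bases, or 5.73 per kilobase, a density that 5.6% of 19171 mouse genes reach or exceed, and 1 copy of the nonamer TTATTTATT, which 7.43% of genes have. Pla2g4a, which fell, held 4 copies in 443 bases (9.03 per kilobase, reached by 1.3% of genes). Ptges, with a region of 3106 bases, held 0 copies, as did Ptgs1 and Tbxas1, where the median gene had 1.31 per kilobase. Whether this density bears on the direction of change was not tested.

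The other genes of the pathway were described as lists. Of 115 listed genes, 113 were in the table and 63 were tested, of which 25 were called higher, 9 lower and 29 did not pass, and 0 were DEG. With total-count scaling 17 were called higher and 16 lower, beside 1520 and 3342 of all 12296 tested genes, and without control replicates 2 and 3, 19 higher and 7 lower. By edgeR's test, 18.7% of all tested genes were higher and 15.7% lower.

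Genes of arachidonate release and reacylation cut arachidonic acid from lipids or return it to them. Of these, 5 of 20 tested genes rose and 4 fell (3 and 6 with total-count scaling). Their median log2FC was -0.02 and became -0.12 with that scaling. Acsl1, a long-chain acyl-CoA synthetase, rose most, from 87.73 ± 2.25 to 177.7 ± 3.28 CPM (SD, n = 3, log2FC 1.02, edgeR adjusted p = 1.4e-10). The secreted phospholipase A2 gene Pla2g5 rose with a log2FC of 0.32 and the acyltransferase gene Lpcat1 with 0.39. Acsl4, the synthetase that prefers arachidonic acid, rose by 0.20 and Acsl5 by 0.18. Abhd12 (log2FC -0.35) and the diacylglycerol lipase gene Daglb (-0.39) fell.

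Of the other genes of prostanoid synthesis and inactivation, 3 of 8 tested rose and 0 fell (3 and 3 with total-count scaling), with a median log2FC of 0.03 that became -0.07 with that scaling. These were Akr1b3, an aldose reductase with prostaglandin F synthase activity (log2FC 0.27, edgeR adjusted p = 0.0011), Ptgr1, a prostaglandin reductase (0.33), and Abcc4, a transporter that exports prostaglandins (0.23). A few genes of the list with almost no counts are given for their step, chosen after their values were seen. Ptgds, the other prostaglandin D synthase, had 2, 1 and 1 counts in control and 0 in all LPS libraries. Ptgis, prostacyclin synthase, had 7, 0 and 3 counts in control and 0, 1 and 0 in LPS libraries, and Hpgd, which inactivates prostaglandins, had 1 count in all.

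Of the other leukotriene and lipoxygenase genes, 1 of 8 tested rose and 2 fell (1 and 3 with total-count scaling). Their median log2FC was -0.18 and became -0.28 with that scaling. Abcc1, which exports leukotriene C4, rose (log2FC 0.33, edgeR adjusted p = 0.00098). Lta4h, the hydrolase that makes leukotriene B4, fell from 57.13 ± 3.4 to 50.63 ± 1.49 CPM (SD, n = 3, log2FC -0.17, edgeR adjusted p = 0.036), and Cotl1, a partner protein of 5-lipoxygenase, fell with a log2FC of -0.30. Mgst3, a microsomal glutathione transferase, had 50.33 ± 3.04 CPM in control and 46.44 ± 1.83 CPM in LPS libraries (SD, n = 3, log2FC -0.12, edgeR adjusted p = 0.18). Ltc4s, leukotriene C4 synthase, also named after its values were seen, had 0 counts in control and 1, 0 and 1 in LPS libraries. In the cytochrome P450 and epoxide hydrolase branch, 0 of 3 tested genes rose and 2 fell, Cyp4f16 (log2FC -0.36) and Ephx1 (-0.27).

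Of the prostanoid and leukotriene receptors, 5 of 15 were tested and 2 rose, with a median log2FC of 0.05 that became -0.05 with total-count scaling. Ptgir, the prostacyclin receptor, rose from 128.4 ± 2.45 to 166.5 ± 3.27 CPM (SD, n = 3, log2FC 0.38, edgeR adjusted p = 7.3e-06). Ptger3, a prostaglandin E2 receptor, rose from 61.2 ± 1.77 to 78.88 ± 3.59 CPM (log2FC 0.37, edgeR adjusted p = 6.9e-05).

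Hsp90 and its co-chaperones, the complex in which p23 works, had 5 of 10 genes higher and 1 lower (1 and 1 with total-count scaling). Their median log2FC was 0.13 and became 0.03 with that scaling. Hsp90aa1 (log2FC 0.17), Hsp90ab1 (0.14), Cdc37 (0.22), Stip1 (0.19) and Ppid (0.30) rose, and Fkbp5, a glucocorticoid-responsive co-chaperone, fell from 107 ± 4.18 to 71.71 ± 2.52 CPM (SD, n = 3, log2FC -0.58, edgeR adjusted p = 3e-07).

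The annexins bind phospholipid membranes, and Anxa1 among them is known as an inhibitor of cytosolic phospholipase A2. The list of annexins and S100a10 rose in 9 of 9 genes, with a median log2FC of 0.48. Anxa1 rose from 337 ± 10.2 to 604.4 ± 25.2 CPM (SD, n = 3, log2FC 0.84, edgeR adjusted p = 6.3e-10). Anxa7 (log2FC 0.84), Anxa2 (0.75), Anxa5 (0.64) and S100a10 (0.48), the partner of annexin A2, rose as well. With RLE size factors 8 and with total-count scaling 7 of the 9 were called higher, and under both all 9 estimates stayed above 0.

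**Figure D5:**
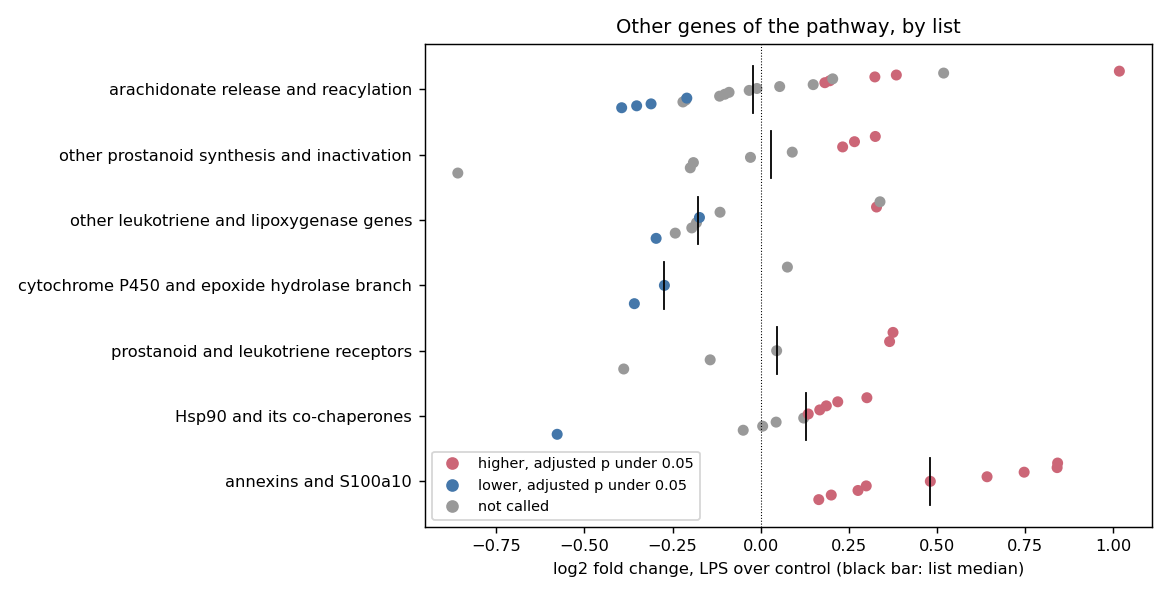
Log2 fold change of LPS against control for the tested genes of each pathway list, 1 point a gene, with the median of each list marked. All 9 points of the annexin list lie above 0, and the other lists hold points on both sides.

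Some of these enzymes are best known in other blood cells, so marker lists of those cells were read beside them. Of 10 mast cell and basophil markers, 5 had counts, and Cpa3, Fcer1a, Ms4a2, Tpsab1 and Mcpt8 were at 0 in every library. Their summed level was 0.269 to 0.567 CPM in control and 4.63 to 5.36 CPM in LPS libraries, and the rise came from Hdc, the histidine decarboxylase gene, with 3, 10 and 4 counts in control and 79, 76 and 88 in LPS libraries. Among platelet and megakaryocyte markers, Ppbp and Gp1bb were at 0 in every library, and the summed level of the list was 6.19 to 7.6 CPM in control and 6.02 to 8.95 CPM in LPS libraries, most of it from Pf4 (4.49 ± 0.447 and 5.278 ± 1.13 CPM, SD, n = 3). Treml1, the other tested marker of that list, had 19, 43 and 48 counts in control and 16, 29 and 23 in LPS libraries (log2FC -0.55, edgeR adjusted p = 0.25).

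Other lists moved in their own ways. The summed level of markers of astrocytes, oligodendrocytes and neurons was 66.8 to 72.8 CPM in control and 63.3 to 68.2 CPM in LPS libraries, and within it Tubb3 was a DEG higher (log2FC 1.67, edgeR adjusted p = 7.3e-07) while Mbp (-0.34) and Aldh1l1 (-0.29) were called lower. Markers of endothelium and fibroblasts summed to 0.737 to 12.3 CPM in control and 2.86 to 9.76 CPM in LPS libraries, with Kdr a DEG higher at 2, 2 and 8 counts in control and 13, 19 and 21 in LPS libraries (log2FC 2.24, edgeR adjusted p = 0.0035). The part of these cell types in the results was not tested. Hepatocyte markers summed to 56.7 to 81 CPM in control and 130 to 134 CPM in LPS libraries. Most of the sum came from Hp, the haptoglobin gene, with 883, 876 and 949 counts in control and 1965, 2115 and 2075 in LPS libraries. Other markers of the list went the other way. Ahsg had 0, 15 and 31 counts in control and Fgb 0, 15 and 16, and both had 0 in all LPS libraries. Fga, Fgg and Serpina1a, like these, had counts only in control replicates 2 and 3. Control replicates 2 and 3 held most of the albumin counts. Without them the log2FC was 1.16 for Ptgs2, 2.14 for Ptges and 0.23 for Ptges3. In the same fit it was -0.75 for Pla2g4a, -0.38 for Ptgs1, -0.23 for Hpgds and -1.29 for Tbxas1.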

How the data were processed

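RNA-seq covered 3 control and 3 LPS samples of N9 microglia, grouped by their labels. The authors deposited raw counts of reads per gene, made with featureCounts version 1.5.0-p3 and the build mm10 per the submitters' processing notes. The aligner, the strand setting and the handling of reads with several matches are not given in the sources used here. In the authors' comparison table, 18 further columns of sample values (over all 6 samples) and 2 group means were not used, nor its log2 fold changes and p-values.

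The counts were tested with edgeR version 4.0.16 under R 4.3.3 (TMM, filterByExpr by group, quasi-likelihood test, no replicate term, prior count 0.125, 10.1 prior degrees of freedom), with Benjamini-Hochberg adjustment over 12296 genes. DEG were genes with adjusted p under 0.05 whose absolute log2FC was over 1.5. Reads carry no molecular identifiers, so counting intervals and floors cover counting error only. Libraries of the same group differed from each other beyond sampling noise (chi-square per gene 3.58 to 7.83). The fit was tested on simulated data.

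The members and lists were chosen with earlier results of these data known. The text names all 10 members and, per list, up to 5 called genes with the largest change and the 2 with the highest level per kilobase, genes that overlap a member, and Ptgs2os and Ptgs2os2. Ptges3-ps, Ptgds, Ptgis, Hpgd, Ltc4s and marker genes are named outside this rule. Fam213b and Prxl2b are names of the same gene, and 2 further symbols are not in the table under the names listed. RefSeq start windows were found for 9 of the 10 members, all but Alox5ap. Positions of all 10 match GENCODE M21. Alternatives were DESeq2 version 1.42.0, RLE factors, no filter or a mean of at least 10 counts, glmTreat, robust dispersion, a prior count of 2, a replicate block and each library left out. Total-count scaling, transcript length for shares, and leaving out control replicates 2 and 3 were added after seeing the data. Figures used matplotlib version 3.10.9.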

Additional observations from a re-analysis of the deposited data

How the results depend on the processing

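Ptgs1, Ptgs2, Ptges, Pla2g4a and Tbxas1 kept their direction and their call in 15 of 15 alternatives, and DESeq2 gave the same calls for all 9 tested members as edgeR. Depth limits Alox5, with 17 counts in control and 3 in LPS libraries. Over all genes, DEG lower went from 31 to 91 without the filter, and glmTreat called 181 DEG higher and 2 lower. Total-count scaling gave 1520 genes higher and 3342 lower, 16 list genes lower, and a log2FC of -0.0012 for Ptges2. Without control replicates 2 and 3, which leaves a lone control assumed to vary like the LPS libraries, 1681 genes were higher and 1151 lower.

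With each library left out in turn, DEG higher ran from 301 to 322, DEG lower from 38 to 62 (62 without LPS replicate 1, 52 without LPS replicate 2 or 3, 49 without control replicate 1), genes higher from 1833 to 2152 and genes lower from 1546 to 1929. Members called higher ran from 2 to 3, called lower from 3 to 5, and DEG lower from 0 to 1 (Tbxas1). List genes called higher ran from 23 to 27 and lower from 7 to 9.

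The Ptgs2 share of both cyclooxygenases was 42.4% in control and 71.5% in LPS libraries from raw counts, and 32.2% and 61.7% by transcript length, and it ran from 36.6% to 39.6% and from 66.7% to 68.8% with libraries left out. The Ptges share of the 5 synthases was 1.6% and 5.51% from raw counts, 3.59% in LPS libraries by transcript length, and 1.08% to 1.21% and 3.73% to 3.95% with libraries left out.

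The labels do not say whether control and LPS libraries of the same replicate number belong together. Their deviations correlated at 0.136, 0.0588 and -0.00415 for replicates 1, 2 and 3, which with 3 libraries per group cannot settle it. With the replicate block, 2454 genes were higher and 2020 lower, and Ptges3 was called higher (log2FC 0.14, edgeR adjusted p = 0.044). Control replicate 1 and LPS replicate 1 correlated best with each other, and LPS replicate 2 best with control replicate 2. Control replicates 2 and 3 and LPS replicate 3 correlated best with a library of another number. The causes of these shifts were not tested.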
